A study of Mus musculus with 36 samples.

Results

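The 9 genes described here encode proteins that form, limit or dissolve fibrin clots, and their messenger RNA was followed cell by cell in the mouse heart after ischemic injury. They were taken by symbol from the 20720 gene rows of the deposited tables, and all 9 were found: the clotting factors F3, F10 and F13a1, the anticoagulant receptor Thbd, the plasminogen activators Plat and Plau with the receptor Plaur, and the protease inhibitors Serpine2 and Serpinb2. Cells came from the infarcted left ventricle of male C57BL/6 mice aged 8 weeks, or the matching region of sham hearts. The tissue was digested, single cells were sorted into 384-well plates, and RNA was counted by SORT-seq, which tags each transcript molecule with a unique molecular identifier (UMI). Sham surgery was sampled on day 1, with 4 plates, and on day 14, with 7. Ischemia-reperfusion (IR), a ligation of the left anterior descending artery that was released after 1 hour, was sampled on day 1, with 9 plates, on day 3, with 6, and on day 14, with 3. Myocardial infarction (MI), the same artery tied for good, was sampled on day 3, with 5 plates. No sham plate of day 3 was analysed here, so day 3 groups were set against both sham days. The MI plates carry a protocol label of their own and held 13120 UMIs in the median cell, against 2308 to 3230 in the other groups, so surgery, depth and experiment cannot be told apart for them.

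Clotting starts when tissue factor, the product of F3, meets plasma factor VII, and the pair activates factor X, the product of F10, which in turn makes thrombin. Thrombin cuts fibrinogen to fibrin, and factor XIII, whose catalytic A subunit is encoded by F13a1, crosslinks the fibrin. Thrombomodulin, the product of Thbd, sits on the endothelium and turns thrombin towards activating protein C. Fibrin is removed by plasmin, which tissue-type (Plat) and urokinase-type (Plau) activators cut from plasminogen, the latter at the cell surface on its receptor Plaur. Protease nexin-1 (Serpine2) inhibits thrombin and both activators, and plasminogen activator inhibitor 2 (Serpinb2) inhibits urokinase. In an infarct this system bears on bleeding, on microvascular obstruction and on how leukocytes move through the provisional fibrin matrix.

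The members lie on 7 chromosomes of GRCm38.p6. Serpine2 (chr1:79794317-79858665) and Serpinb2 (chr1:107500892-107525600) share chromosome 1, F10 (chr8:13037308-13056676) and Plat (chr8:22757722-22782848) share chromosome 8, and the others are Thbd (chr2:148404471-148408188), F3 (chr3:121723537-121735052), Plaur (chr7:24460937-24475970), F13a1 (chr13:36867178-37050244) and Plau (chr14:20836662-20843388). Plaur, Serpinb2 and F10 were the genes that rose most at IR day 1, so their RefSeq promoters are shown 5′ to 3′, from 250 bases before to 50 bases after the start of an annotated transcript. The Serpinb2 and Plaur starts lie inside the gene spans given above, and of 2 Serpinb2 windows in the RefSeq table, which overlap, the first is shown. Capitals mark TGANTCA, the binding motif TGA(C/G)TCA of AP-1 factors widened to any central base. Stress signals activate these factors in many cells. The stretch marked in Serpinb2, TGAATCA, matches the widened form only.
Serpinb2, chr1:107511173-107511472, plus strand: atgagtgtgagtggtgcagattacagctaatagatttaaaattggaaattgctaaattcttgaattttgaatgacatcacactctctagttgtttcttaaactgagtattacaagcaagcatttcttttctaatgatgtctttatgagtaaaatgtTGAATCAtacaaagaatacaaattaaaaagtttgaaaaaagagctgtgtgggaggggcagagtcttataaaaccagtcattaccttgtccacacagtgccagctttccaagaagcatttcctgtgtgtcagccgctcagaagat
Plaur, chr7:24462233-24462532, plus strand: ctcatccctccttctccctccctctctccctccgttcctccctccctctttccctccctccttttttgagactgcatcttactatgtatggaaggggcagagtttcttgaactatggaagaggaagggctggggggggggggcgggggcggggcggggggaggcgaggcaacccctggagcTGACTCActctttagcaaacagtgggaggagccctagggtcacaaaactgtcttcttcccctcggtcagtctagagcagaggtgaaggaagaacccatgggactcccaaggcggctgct
F10, chr8:13037058-13037357, plus strand: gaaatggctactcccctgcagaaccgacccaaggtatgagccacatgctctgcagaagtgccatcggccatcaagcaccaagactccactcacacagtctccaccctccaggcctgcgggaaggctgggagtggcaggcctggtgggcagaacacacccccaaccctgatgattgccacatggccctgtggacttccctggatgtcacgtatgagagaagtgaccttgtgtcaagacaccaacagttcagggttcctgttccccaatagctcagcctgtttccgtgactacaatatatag
Of the 9 members, 6 had a promoter entry. The widened form TGANTCA, searched on both strands, occurred once in both Serpinb2 windows and in the Plaur window, 2 times in F3 and not in F10, F13a1 or Serpine2. It was present in 7.81% of 32851 promoters of the same length. The TATA box letters TATAAA, searched the same way, were in the Serpinb2 and F3 windows and in 13.6% of all promoters. A match is a string of letters and no measurement of binding.

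Of 13824 wells, 3146 held at least 1000 UMIs, and 3127 of these were kept. The 19 left out had profiles that matched the well of the same number on another plate, and are called copied wells. The matching wells of these plate pairs had median correlations of 0.331 and 0.362, taken on deviations from the plate mean. Sham day 14 replicates 2 and 7 matched well by well and were averaged as 1 plate. Library sizes were 17155 to 484913 UMIs per sham day 14 plate, 44133 to 2742989 per IR day 3 plate and 2303858 to 4150040 per MI plate, with the other groups between 277612 and 1008407. Cells were clustered without the 9 members and without a list of 38 further clotting genes, and clusters were named from markers. For counts of cells and levels by class alone, sham day 14 replicate 2 was left out in place of averaging, which left 3092 cells. Of these, 1120 cells were cardiomyocyte-like, 625 macrophage-like, 443 endothelial-like, 298 fibroblast-like and 155 neutrophil-like. No label ties a plate to a mouse, and the methods, where they describe digesting the hearts, give fewer hearts per condition than there are plates in every group but IR day 14. If this holds for all groups, some plates of those with more plates share an animal, and then the p-values, which measure the spread between plates, are too small as tests over mice.

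The heat map by class and group gives the source of each member in CPM, the gene's UMIs as a share of all UMIs of the library, scaled to the same total in every library. Levels given by class alone pool all groups, which the classes hold unequally, so class and group are mixed in them. F13a1 reached 812 CPM in macrophage-like cells against 13.9 to 50.1 CPM in the other 4 classes, and F10 reached 98.1 CPM against 2.42 to 45.1 CPM. In a fit over 107 class-by-plate libraries from 32 plates, with the plate as a term, both were higher in macrophage-like cells than in the mean of the other 4 classes, by 5.67 ± 0.23 on the log2 scale for F13a1 (SE; edgeR adjusted p = 4.5e-49) and 3.75 ± 0.26 for F10 (edgeR adjusted p = 8.4e-28). The SE here and below is the log2 change divided by the square root of its F statistic. Of the 13967 genes in this fit, 30.1% were higher in macrophage-like cells.

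**Figure D1:**
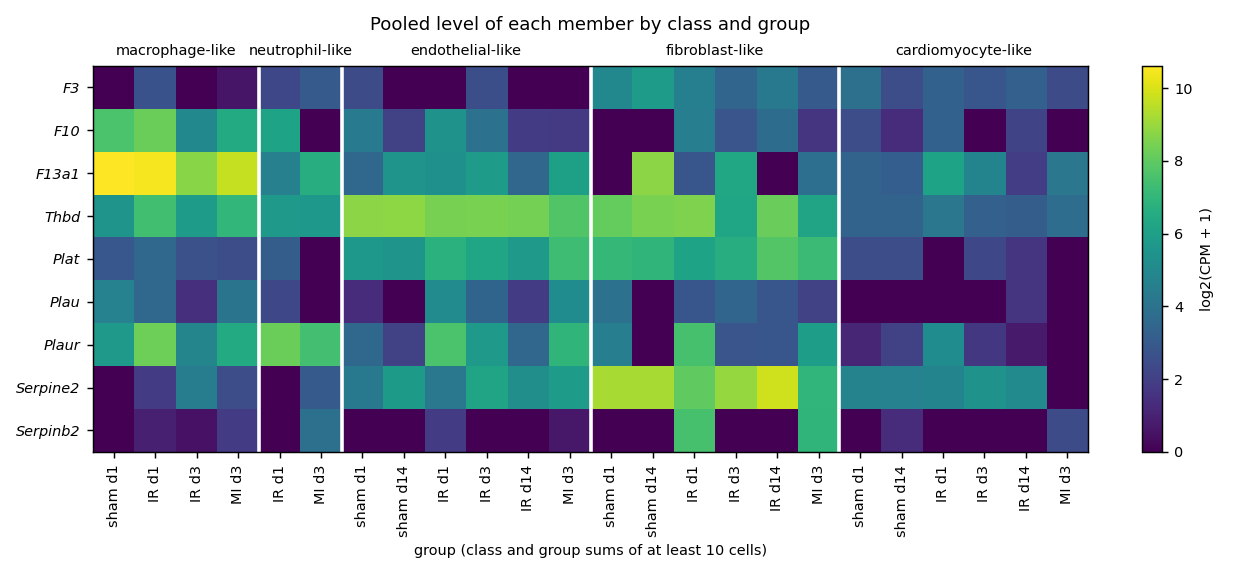
Heat map of the 9 genes (rows) over class and group sums of at least 10 cells (columns), coloured by log2(CPM + 1) of the pooled UMIs. F13a1 and F10 are brightest in macrophage-like columns, Thbd in endothelial-like and several fibroblast-like columns, Serpine2 in fibroblast-like columns, and Serpinb2 is brightest in fibroblast-like cells of IR day 1 and MI day 3.

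Thbd had its highest level in endothelial-like cells, 310 CPM, and reached 116 CPM in both macrophage-like and fibroblast-like cells. Its excess in endothelial-like cells was 2.16 ± 0.21 (log2, SE; edgeR adjusted p = 9.4e-17), in a fit where 18.8% of genes were higher in that class. It was also higher in fibroblast-like cells by 1.19 ± 0.25 (edgeR adjusted p = 2.1e-05) and in macrophage-like cells by 0.93 ± 0.24 (edgeR adjusted p = 0.00083), classes looked at beside the planned one. Plat was higher in endothelial-like cells by 2.83 ± 0.27 (edgeR adjusted p = 4.2e-17) and in fibroblast-like cells by 3.42 ± 0.27 (edgeR adjusted p = 1.4e-22), at 106 and 137 CPM, and was at 5.40 CPM in macrophage-like cells. Serpine2 was higher in fibroblast-like cells by 4.51 ± 0.25 (edgeR adjusted p = 4.8e-35), where 33.8% of genes were higher, and stood at 187 CPM there against 2.50 to 41.6 CPM in the other 4 classes. Plat and Serpine2 were also seen in the 15 mural-like cells, at 113 and 219 CPM.

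Plaur was at 250 CPM in neutrophil-like, 96.6 in macrophage-like, 94.2 in endothelial-like, 68.1 in fibroblast-like and 2.42 CPM in cardiomyocyte-like cells. These levels mix groups, since 105 of the 155 neutrophil-like cells were of IR day 1 and 49 of MI. It was above the mean of the other classes in macrophage-like cells by 1.21 ± 0.22 (log2, SE; edgeR adjusted p = 8.3e-07) and in neutrophil-like cells by 0.99 ± 0.28 (edgeR adjusted p = 0.0028). Plau was higher in macrophage-like cells by 1.51 ± 0.39 (edgeR adjusted p = 0.00071) and in endothelial-like cells by 1.89 ± 0.40 (edgeR adjusted p = 5.7e-05). F3 was higher in cardiomyocyte-like cells by 1.90 ± 0.48 (edgeR adjusted p = 0.00044), where 25.7% of genes were higher, and in fibroblast-like cells by 2.02 ± 0.36 (edgeR adjusted p = 9.2e-07). Serpinb2 was the exception among the 9 planned tests. It was tested in macrophage-like cells, where it was not higher (log2 −1.32 ± 0.73, edgeR adjusted p = 0.146), and its level was highest in fibroblast-like cells (4.87 ± 0.37, edgeR adjusted p = 2.9e-22), a class looked at after the levels were seen. That class was picked from these same levels, so its p is no independent support. In all, 10 cells held 93.4% of the Serpinb2 UMIs, and the source fit was not rerun without them.

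The share of cells with a UMI moved with depth. F13a1 was detected in 83.8% of macrophage-like cells, and in 45.4% when every cell was thinned to 1000 UMIs. In cardiomyocyte-like cells, which give the background here, these shares were 4.55% and 1.52%. Thbd was detected in 55.3% of endothelial-like cells (27.5% thinned) against 3.21% (1.16% thinned) of cardiomyocyte-like cells. Plaur was detected in 50.2% of macrophage-like cells (9.44% thinned) and in 33.5% of neutrophil-like cells, the median macrophage-like cell having 12197 UMIs and the median neutrophil-like cell 2087. After thinning the share was higher in neutrophil-like cells. Serpine2 was detected in 73.8% of fibroblast-like cells (21.1% thinned) and in 9.55% of cardiomyocyte-like cells.

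The timing over all sampled cells was tested on UMIs summed per plate. In these sums, fewer cells of a type and less RNA per cell cannot be told apart. The make-up did shift: the summed macrophage markers had plate medians of 1313 CPM at sham day 1, 1662 at IR day 1, 7039 at IR day 3 and 4559 at MI day 3, the neutrophil markers 309, 4326, 69.7 and 550 CPM, the fibroblast markers 5191, 5388, 10122 and 14628 CPM, and the endothelial markers 4650, 1841, 887 and 771 CPM. The cardiomyocyte markers had plate medians of 28043, 1819, 19021 and 1134 CPM in these groups, and cardiomyocyte-like cells were 53.2%, 7.51%, 47.2% and 2.77% of the kept cells. The platelet markers had plate medians of 338, 1060, 1111 and 1616 CPM. Their part in the whole-plate results was not tested, but the same genes were measured within classes below.

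At IR day 1, 4 of the 9 members passed the test against sham day 1, all higher, where 25.4% of 14380 genes passed. From IR day 1 to day 3, 5 members passed, all lower (20.9% of genes). Against sham, IR day 3 had 1 member higher and 1 lower (22.6% of genes), and MI day 3 had 6 higher (49.7% of genes). MI day 3 against IR day 3 gave 4 higher members (11.8% of genes), and IR day 14 against IR day 3 gave 2 lower members (16.8% of genes). At IR day 14, 0 members passed against sham day 14, where edgeR called 0.0139% of genes and 1116 genes had an unadjusted p under 0.05. The median log2 change of the members was 1.48 at IR day 1, against 0.03 over all genes, −1.62 from IR day 1 to day 3, against −0.04, and 1.59 for MI against sham, against 0.25. Whether an effect of IR differed between day 1 and day 14 was tested directly: 11.1% of genes passed and 0 members did, Plaur coming nearest with a difference of 4.00 (log2, edgeR adjusted p = 0.082). With DESeq2 in place of edgeR, 10 of these calls missed the threshold (DESeq2 adjusted p 0.051 to 0.313): Plau and Serpinb2 at IR day 1, Plaur at IR day 3 against sham, F10, F13a1 and Serpinb2 at MI against sham, Plat, Plau and Serpinb2 at MI against IR day 3, and Plaur at IR day 14 against IR day 3.

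**Figure D2:**
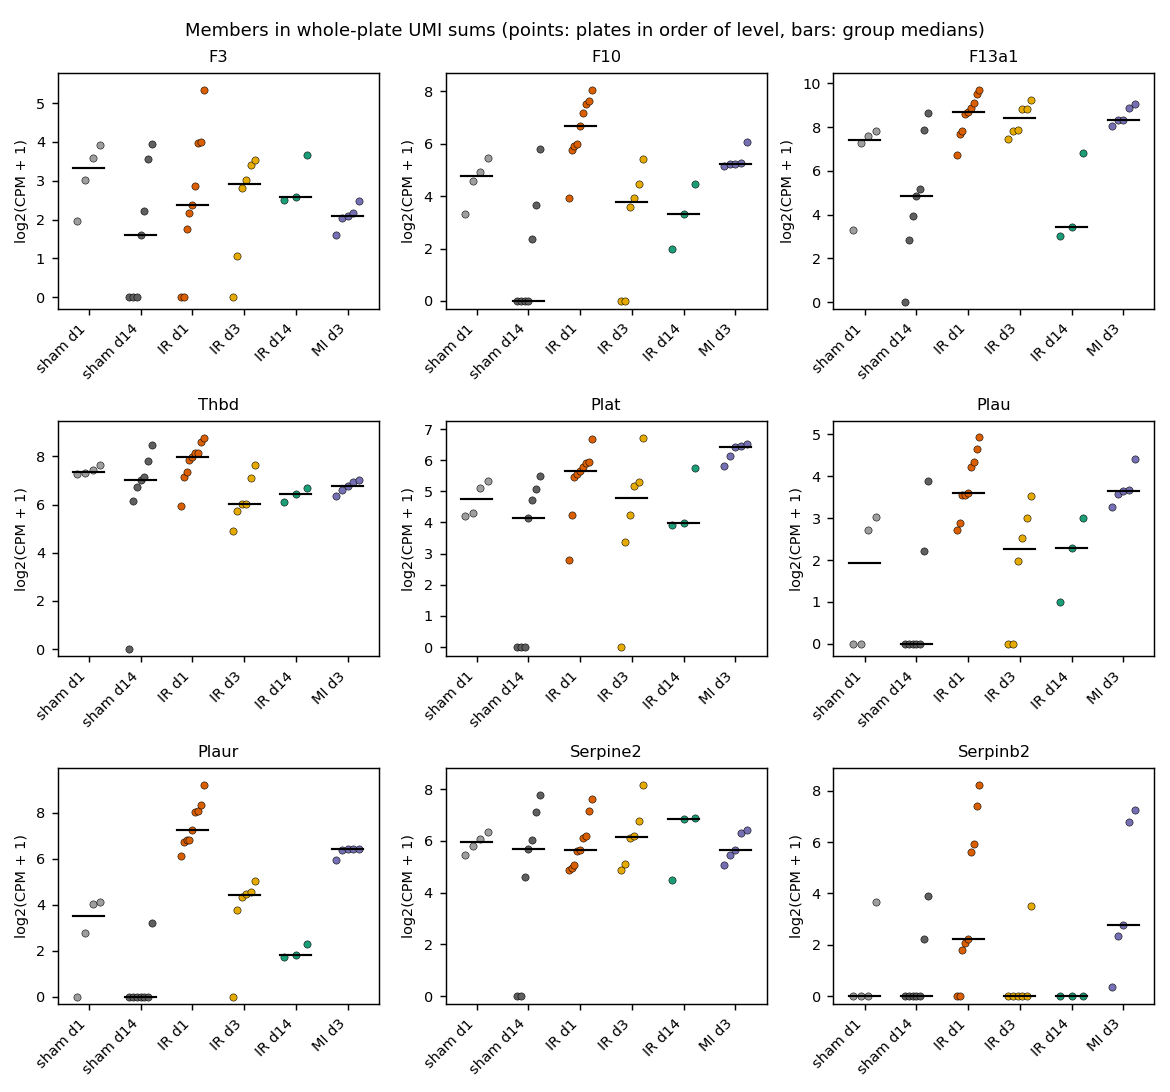
Level of the 9 genes over all kept cells of each plate, as log2(CPM + 1) on the vertical axis, with 1 point per plate, set side by side in order of level, and a bar at the median of each of the 6 groups. All 9 IR day 1 plates and all 5 MI plates lie above every sham day 1 plate for Plaur, and Serpinb2 is high in a few plates of IR day 1 and MI.

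Tissue factor (F3) was the member with the fewest UMIs, 142 in all, and no comparison of it passed the test. Over whole plates it was at 11.1, 7.10, 14.0 and 2.89 CPM at sham day 1 and at 3.13, 2.06, 4.60, 3.24 and 3.47 CPM at MI. Sham day 14 plates were at 2.06, 0, 0, 3.65, 0, 14.5 and 10.8 CPM, so the MI plates lay within the range of all sham plates. The difference of MI from both sham days (log2 −1.20, edgeR adjusted p = 0.092) missed the threshold. IR day 1 plates ranged from 0 to 39.6 CPM with a median of 4.19 CPM, a range that held every sham day 1 plate. Most F3 UMIs were in fibroblast-like cells (89 UMIs, in 16.4% of cells) and cardiomyocyte-like cells (36 UMIs, in 2.68% of cells).

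F10, whose protein circulates as a liver product and is also made by macrophages, was highest at IR day 1. Sham day 1 plates were at 8.86, 42.6, 29.5 and 23.1 CPM, IR day 1 plates at 14.3 to 263 CPM with a median of 101 CPM, and 8 of 9 lay above all sham day 1 plates. The rise was 2.00 ± 0.52 (log2, SE; edgeR adjusted p = 0.0036). IR day 3 plates were lower again, from 0 to 42.0 CPM with a median of 12.7 CPM, and F10 fell by 2.71 on the log2 scale from IR day 1 (SE 0.52, edgeR adjusted p = 0.00016). Sham day 14 plates were at 0 in 4 of 7 and at most at 55.0 CPM, above 4 of the 5 MI plates. MI plates stood at 37.1, 36.0, 65.5, 36.8 and 34.3 CPM, 1.66 ± 0.52 above both sham days (edgeR adjusted p = 0.0082), but against sham day 1 alone the difference was 0.56 (edgeR adjusted p = 0.442). Sham day 14 had 7 macrophage-like cells in all.

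Within macrophage-like cells F10 followed the same course from day 1 to day 3. Sham day 1 plates with at least 5 such cells were at 214, 252 and 58.8 CPM, IR day 1 plates at 47.0 to 658 CPM with a median of 375 CPM, and IR day 3 plates at 0 to 136 CPM with a median of 19.9 CPM. Sham and IR day 1 overlapped and the difference did not pass the test. The fall from IR day 1 to day 3 was 3.36 on the log2 scale, or 10.2-fold (log2 −3.36 ± 0.49, edgeR adjusted p = 2.1e-06), in a contrast where 18.0% of genes passed and 6 of the 8 members tested did. MI plates, at 81.0, 67.5, 154, 75.6 and 79.6 CPM, were above IR day 3 by 1.66 ± 0.49 (edgeR adjusted p = 0.028), where 7.53% of genes and 4 of 8 members passed. That call was lost without any one of IR day 3 replicates 4, 5, 6 or 7 or MI replicate 3 (edgeR adjusted p 0.053 to 0.143).

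The macrophage-like cells were not of 1 kind, and F10 and F13a1 divided them differently. Cluster 5, whose leading genes include Cxcl3 and Ccl24, had F10 at 490 CPM at IR day 1 (57 cells) and 76.2 CPM at MI (134 cells). Cluster 7, led by Cd74 and MHC class II genes, had F10 at 110 and 139 CPM in these groups. Cluster 14, led by Cd209f, Vsig4, Cd163 and Lyve1, genes known from resident macrophages, had F10 between 0 and 8.45 CPM in sham day 1, IR day 1, IR day 3 and MI. Cluster 9, led by Gpnmb and held mostly by IR day 3 (138 cells), had F10 at 24.2 CPM. Cluster 5 held 57 of the 113 macrophage-like cells at IR day 1 and 6 of 196 at IR day 3, so the fall of F10 in this class compares different clusters, as do the other contrasts of this class between IR day 1, IR day 3 and MI. Within cluster 5 F10 was at 246 CPM in the 6 IR day 3 cells, and within cluster 7 at 57.7 CPM in 20. These levels pool cells of all plates of a group and have no test.

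F13a1, the A subunit of the fibrin crosslinking enzyme and a gene of tissue macrophages and platelets, was highest in the cluster where F10 was lowest. In cluster 14 it stood at 2515 CPM at sham day 1, 2577 at IR day 1, 1339 at IR day 3 and 1457 CPM at MI. In cluster 9 at IR day 3 it was at 350 CPM, and in cluster 5 at 1457 CPM at IR day 1 and 858 CPM at MI. Summed per plate, the macrophage-like cells were at 1128, 1695 and 2146 CPM at sham day 1, at 421 to 2793 CPM at IR day 1 (median 1144), at 329 to 1902 CPM at IR day 3 (median 547) and at 674, 1013, 637, 940 and 732 CPM at MI. The fall from IR day 1 to day 3, 0.92 on the log2 scale (SE 0.32, edgeR adjusted p = 0.036), missed the threshold without 7 of the plates in turn. Those were IR day 1 replicates 3, 4 and 7 and IR day 3 replicates 1, 4, 6 and 7 (edgeR adjusted p 0.054 to 0.137).

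Over whole plates F13a1 was at 320, 530, 268, 476 and 320 CPM at MI, above 8.86, 192, 152 and 223 CPM at sham day 1. Sham day 14 plates ran from 0 to 406 CPM with 5 of 7 at or below 35.3 CPM, and the highest of them exceeded 3 of the 5 MI plates. MI was above both sham days by 1.59 ± 0.58 (log2, SE; edgeR adjusted p = 0.021), and missed the threshold without sham day 14 replicate 6, IR day 3 replicate 7 or MI replicate 2 (edgeR adjusted p 0.053 to 0.058) and against sham day 1 alone (1.32, edgeR adjusted p = 0.168). Within macrophage-like cells MI and IR day 3 had 0 members past the test against sham day 1, in contrasts where 1.31% and 1.62% of genes passed, with 1683 and 1690 genes at an unadjusted p under 0.05. IR day 14 plates were at 9.92, 7.06 and 111 CPM, below all 6 IR day 3 plates, which ran from 176 to 599 CPM (log2 −2.71 ± 0.90, edgeR adjusted p = 0.032). The adjusted p was 0.056 to 0.154 without IR day 3 replicate 3 or 7 or IR day 14 replicate 1 or 2. Macrophage-like cells numbered 196 at IR day 3 and 6 at IR day 14, and the macrophage markers had a plate median of 96.2 CPM at IR day 14. The platelet marker list summed to 3017 CPM in macrophage-like cells, with 5 of its 6 genes detected and Gp1ba at 0. Its part in the F13a1 level was not tested.

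Outside macrophage-like cells F13a1 passed in 3 contrasts. In fibroblast-like cells it passed from IR day 1 to day 3 (3.21, edgeR adjusted p = 0.012) and from IR day 3 to MI (−2.18, edgeR adjusted p = 0.017), but 33 of 41 IR day 3 UMIs were in 1 cell that also carried macrophage markers. The 96 MI UMIs were spread over 54 of 136 cells. Without IR day 3 replicate 4, which held that cell, the values were 0.39 (edgeR adjusted p = 0.911) and 0.62 (edgeR adjusted p = 0.835). In cardiomyocyte-like cells, where 4 members could be tested, F13a1 was lower at IR day 14 than at IR day 3 (−2.56 ± 0.77, edgeR adjusted p = 0.038), in a contrast where 2.51% of genes passed. Its 34 UMIs at IR day 3 lay in 30 of 287 cells. The macrophage markers in these cells summed to 868 CPM at IR day 3 and 56.05 CPM at IR day 14, and their part was not tested. That call too was lost without IR day 3 replicate 4 or 7 or any of the 3 IR day 14 plates (edgeR adjusted p 0.064 to 0.52).

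Thbd, the thrombin receptor of the vessel wall, fell in endothelial-like cells after MI. Sham day 1 plates were at 494, 435, 397 and 427 CPM and sham day 14 plates at 403, 287, 717 and 516 CPM, while MI plates were at 184, 108, 109, 304 and 49.9 CPM. The highest MI plate exceeded only the lowest sham plate. The fall was 2.64-fold (log2 −1.40 ± 0.34, edgeR adjusted p = 0.0017), in a contrast where 19.0% of genes and 4 of the 7 members tested passed. The endothelial marker list in these cells was at 15318 CPM at sham day 1, 12040 at sham day 14 and 6658 CPM at MI. The cardiomyocyte list was at 12423, 27960 and 167 CPM in these groups. The part of either was not tested. IR day 1 plates ran from 205 to 553 CPM (median 381), IR day 3 plates were at 228, 308 and 409 CPM and IR day 14 plates at 374, 168 and 382 CPM, and none of these groups passed against sham.

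The sham and MI endothelial-like cells lay in different clusters, which holds for every member compared in this class. Of the 58 MI cells, 52 were in cluster 11, led by Plvap, Mest and Apln, which had Thbd at 194 CPM at MI. Cluster 3, led by capillary genes such as Cd300lg, Gpihbp1 and Fabp4, held 85 of 119 sham day 1 cells and had Thbd at 481 CPM at sham day 1, 374 at IR day 1, 619 at IR day 3 (17 cells), 323 at IR day 14 and 244 CPM at MI (6 cells). One MI well of 426261 UMIs held 101 of the 334 MI endothelial-like Thbd UMIs, and without it the pooled MI level was 198 CPM. That well also held 2041 UMIs of the fibroblast list and 352 of the macrophage list, though it was not flagged as carrying markers of another class.

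In macrophage-like cells Thbd took part in the drop from IR day 1, with 0 to 411 CPM and a median of 127 CPM, to IR day 3, with 10.3 to 106 CPM and a median of 65.7 CPM (log2 −1.47 ± 0.40, edgeR adjusted p = 0.0080). In cluster 5 it was at 274 CPM at IR day 1 and had no UMI in the 6 IR day 3 cells. In cluster 7 it was at 53.9 CPM at IR day 1 and 91.3 CPM at IR day 3, in cluster 14 at 8.45 CPM (1 UMI) and 42.5 CPM, and in cluster 9, which held most IR day 3 cells, at 57.4 CPM at IR day 3, so the class difference compares different clusters. Fibroblast-like cells were at 253, 268 and 291 CPM at sham day 1 and at 61.3, 93.0, 85.8, 47.5 and 57.9 CPM at MI, 2 ranges that did not overlap, but the difference of −1.54 missed the threshold (edgeR adjusted p = 0.076). Over whole plates Thbd was at 157, 151, 199 and 171 CPM at sham day 1, at 0 to 350 CPM at sham day 14 and at 60.9 to 437 CPM at IR day 1 (median 248). IR day 3 plates, at 28.6 to 200 CPM with a median of 63.9 CPM, were below IR day 1 by 1.62 on the log2 scale (log2 −1.62 ± 0.40, edgeR adjusted p = 0.0027). Against both sham days IR day 3 was lower by a margin at the threshold (log2 −1.05 ± 0.39, edgeR adjusted p = 0.049), and the call was lost when any one of 22 of the 34 plates was left out, among them every sham day 1 and MI plate (edgeR adjusted p 0.051 to 0.136).

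Plat, the tissue-type activator, rose at MI. Over whole plates it was at 33.2, 18.9, 39.3 and 17.3 CPM at sham day 1, at 0 to 43.8 CPM at sham day 14 and at 84.3, 68.9, 86.2, 90.2 and 54.7 CPM at MI, so that all 5 MI plates lay above all 11 sham plates (log2 1.49 ± 0.37, edgeR adjusted p = 0.00085). IR day 3 plates ran from 0 to 105 CPM with a median of 26.6 CPM, and MI was above them by 1.51 ± 0.45 (edgeR adjusted p = 0.021), a call lost without IR day 3 replicate 4 or 7 (edgeR adjusted p 0.12 and 0.133). The IR day 1 plates, at 5.91 to 101 CPM with a median of 49.2 CPM, did not pass against sham day 1.

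Within endothelial-like cells Plat stood at 56.7, 23.7, 59.3 and 42.7 CPM at sham day 1 and at 155, 96.0, 146, 195 and 74.9 CPM at MI. Sham day 14 plates were at 26.0, 99.4, 0 and 46.9 CPM, the highest of them above 2 of the MI plates. The rise over both sham days was 1.58 ± 0.44 (log2, SE; edgeR adjusted p = 0.0066, DESeq2 adjusted p = 0.056). The MI well of 426261 UMIs held 89 of 251 MI endothelial-like Plat UMIs, and without it the pooled MI level was 138 CPM. In fibroblast-like cells the level differed little: 158, 149 and 0 CPM at sham day 1 and 161, 164, 155, 150 and 99.6 CPM at MI, with no call. The fibroblast markers of the whole plates had a median of 14628 CPM at MI against 5191 CPM at sham day 1, beside the whole-plate rise of Plat.

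Plau, the urokinase-type activator, was sparse, with 294 UMIs in 164 cells. Sham day 1 plates were at 0, 7.10, 5.62 and 0 CPM, sham day 14 plates at 0 in 5 of 7 and at most at 13.8 CPM, IR day 1 plates at 5.59 to 29.5 CPM (median 11.2) and MI plates at 8.68, 11.6, 11.8, 20.3 and 10.9 CPM. Plau rose at IR day 1 by 1.85 ± 0.66 (log2, SE; edgeR adjusted p = 0.033) and at MI by 2.24 ± 0.58 (edgeR adjusted p = 0.0014). The call at IR day 1 was lost without sham day 1 replicate 1 or 4 or IR day 1 replicate 6 or 9 (edgeR adjusted p 0.061 to 0.12). IR day 3 plates ran from 0 to 10.5 CPM with a median of 3.84 CPM, lower than IR day 1 (log2 −2.25 ± 0.63, edgeR adjusted p = 0.0086, or 0.052 without IR day 3 replicate 7) and lower than MI (MI minus IR day 3 2.08 ± 0.63, edgeR adjusted p = 0.022). The latter was lost without IR day 3 replicate 4 or 7 or MI replicate 4 (edgeR adjusted p 0.066 to 0.151).

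In macrophage-like cells Plau separated the day 3 groups without overlap. MI plates were at 14.4, 15.6, 20.1, 14.5 and 17.8 CPM, and IR day 3 plates ran from 0 to 10.3 CPM with a median of 0 (log2 3.06 ± 0.67, edgeR adjusted p = 0.0019). Of the 4 IR day 3 plates at 0, 3 had libraries of 28370 to 40983 UMIs, in which the MI levels come to less than 1 UMI. The cells also lay in different clusters, 134 and 110 MI cells in clusters 5 and 7 and 138 of 196 IR day 3 cells in cluster 9. Within cluster 9 Plau was at 12.6 CPM at MI (5 UMIs) and 1.05 CPM at IR day 3 (2 UMIs), and within cluster 14 at 44.3 CPM (31 UMIs) and 10.6 CPM (2 UMIs). In endothelial-like cells 7 of 8 sham plates had no Plau UMI and 1 was at 3.49 CPM, while MI plates were at 14.3, 27.0, 51.0, 50.7 and 0 CPM. MI was higher by 4.49 ± 0.93 (edgeR adjusted p = 0.00026). Against the floor of 3 UMIs over the sham day 14 cells, which had none, endothelial-like Plau was at least 3.72-fold higher at MI and at least 3.57-fold higher at IR day 1. A few deep wells weighed on these values. The MI well of 426261 UMIs held 32 of 56 Plau UMIs, and 2 IR day 1 wells held 16 of 26. Without them the pooled level was 20.4 CPM at MI and 22.4 CPM at IR day 1, in place of 35.0 and 33.5 CPM. The fold bounds above would then be lower. Without wells over 100000 UMIs, a setting chosen after seeing the data, the MI difference was 3.73 (edgeR adjusted p = 0.0029) and the IR day 1 difference, 3.61 ± 1.01 (edgeR adjusted p = 0.019) with them, was 2.74 (edgeR adjusted p = 0.142). The IR day 1 call was also lost without sham day 1 replicate 1, 2 or 4 or IR day 1 replicate 9 (edgeR adjusted p 0.053 to 0.070).

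Plaur, the urokinase receptor, rose at IR day 1 and fell by IR day 3. Over whole plates it was at 0, 16.6, 15.5 and 5.78 CPM at sham day 1 and at 0 to 8.25 CPM at sham day 14, and IR day 1 plates ran from 68.1 to 586 CPM with a median of 151 CPM. All 9 IR day 1 plates lay above all 4 sham day 1 plates, 19.3-fold higher (log2 4.27 ± 0.55, edgeR adjusted p = 1.5e-07). IR day 3 plates, at 0 to 31.5 CPM with a median of 20.3 CPM, lay below all IR day 1 plates, and Plaur fell 11.4-fold (log2 −3.51 ± 0.47, edgeR adjusted p = 6.8e-07). MI plates were at 83.6, 60.6, 85.4, 84.6 and 84.6 CPM, above all 11 sham plates (log2 3.74 ± 0.49, edgeR adjusted p = 4.8e-08) and all 6 IR day 3 plates (2.09 ± 0.48, edgeR adjusted p = 0.0020).

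By IR day 14 the 3 plates were at 3.97, 2.35 and 2.59 CPM, below IR day 3 by 2.25 on the log2 scale (log2 −2.25 ± 0.80, edgeR adjusted p = 0.044). That call, and the excess of IR day 3 over sham (1.65 ± 0.61, edgeR adjusted p = 0.046), were near the threshold. The first was lost without any one of 10 plates, among them all of IR day 14 and 5 of IR day 3 (edgeR adjusted p 0.051 to 0.152), and the second without any one of 16, among them 6 of sham day 14 and 5 of IR day 3 (edgeR adjusted p 0.050 to 0.197). Against sham day 1 alone the IR day 3 excess was 0.77 (edgeR adjusted p = 0.45).

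**Figure D3:**
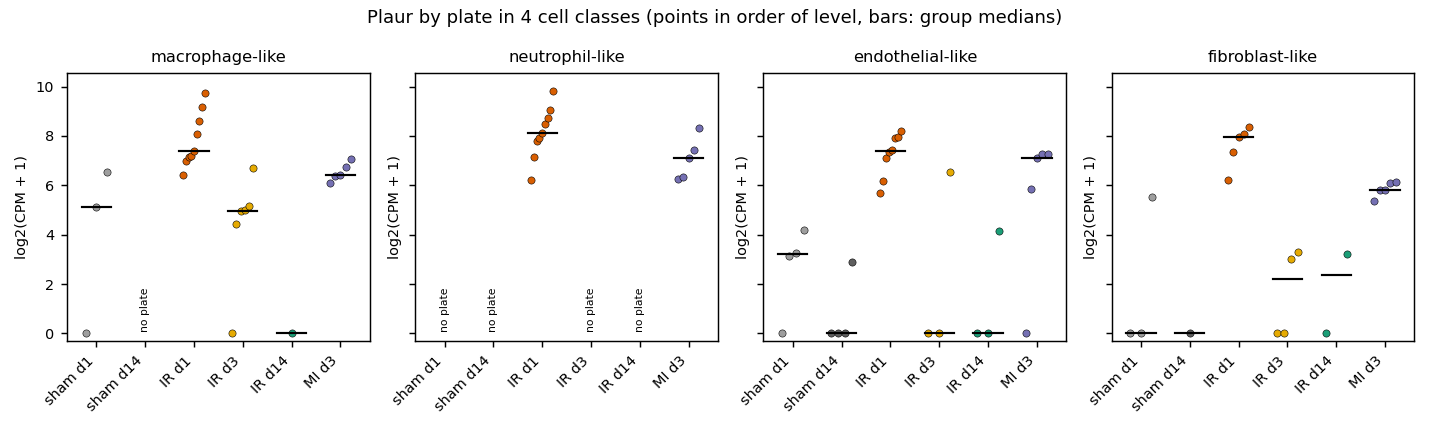
Plaur as log2(CPM + 1) in 4 classes of cells, with 1 point per plate with at least 5 cells of the class and a bar at the group median. Endothelial-like and fibroblast-like IR day 1 plates lie above all sham day 1 plates, and fibroblast-like IR day 3 plates are at or below 8.83 CPM.

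The rise of Plaur at IR day 1 was found in 3 classes separately. In macrophage-like cells, sham day 1 plates were at 91.5, 33.6 and 0 CPM and IR day 1 plates at 84.9 to 866 CPM with a median of 167 CPM (log2 2.88 ± 0.73, edgeR adjusted p = 0.040). Only 0.883% of genes and 1 of the 8 members passed there, and the call was lost without 8 plates in turn, sham day 1 replicates 2, 3 and 4, IR day 1 replicates 5, 7 and 8 and IR day 3 replicates 1 and 5 (edgeR adjusted p 0.053 to 0.3). In endothelial-like cells, sham day 1 plates were at 0, 7.91, 17.4 and 8.53 CPM and IR day 1 plates at 50.4 to 292 CPM with a median of 167 CPM, all 8 above the sham day 1 plates (3.80 ± 0.64, edgeR adjusted p = 3.9e-05), where 6.22% of genes and 2 of 7 members passed. In fibroblast-like cells, sham day 1 plates were at 0, 44.6 and 0 CPM and IR day 1 plates at 165, 267, 72.6, 326 and 250 CPM (3.42 ± 0.73, edgeR adjusted p = 0.0021), where 9.77% of genes and 1 of 9 members passed. The neutrophil markers also rose from sham day 1 to IR day 1 in these classes. They went from 283 to 869 CPM in macrophage-like, 329 to 1146 in endothelial-like and 66.9 to 188 CPM in fibroblast-like cells, and their part was not tested.

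The clusters within these classes also changed. All 23 fibroblast-like cells of sham day 1 were in cluster 15, and 42 of 52 at IR day 1 were in cluster 4, where Plaur was at 192 CPM. In cluster 15 Plaur was at 22.3 CPM at sham day 1 (3 UMIs) and 29.8 CPM at IR day 1 (2 UMIs). Of 21 macrophage-like cells at sham day 1, 13 were in cluster 14, and at IR day 1 57 of 113 were in cluster 5 and 39 in cluster 7. Within cluster 14 Plaur was at 12.2 CPM (1 UMI) and 33.8 CPM (4 UMIs), and within cluster 5 at 109 CPM (6 cells) and 419 CPM. In endothelial-like cells of cluster 3 Plaur had 3 UMIs in 85 cells at sham day 1 and 75 UMIs in 34 cells at IR day 1 (187 CPM), 62 of the latter in 1 well of 190460 UMIs. Cluster 11 held 5 of 119 cells at sham day 1 and 33 of 78 at IR day 1, with Plaur at 128 CPM (4 UMIs) and 216 CPM (76 UMIs). These pooled levels have no test.

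The fall to IR day 3 was found in macrophage-like and fibroblast-like cells. In endothelial-like cells IR day 3 plates were at 0, 91.6 and 0 CPM, the highest of them above 2 of the 8 IR day 1 plates, and the difference missed the threshold (log2 −1.77 ± 0.67, edgeR adjusted p = 0.214). Macrophage-like IR day 3 plates were at 0 to 102 CPM with a median of 30.4 CPM, 10.4-fold below IR day 1 (log2 −3.38 ± 0.49, edgeR adjusted p = 2.1e-06). At IR day 3 only 6 of these 196 cells were in cluster 5 and 138 were in cluster 9, so this contrast compares different clusters. Within cluster 7 Plaur went from 242 CPM at IR day 1 to 52.8 CPM at IR day 3, and within cluster 14 from 33.8 to 42.5 CPM. Fibroblast-like IR day 3 plates were at 0, 7.19, 0 and 8.83 CPM, 31.0-fold below IR day 1 (log2 −4.95 ± 0.65, edgeR adjusted p = 5.4e-06), where 12.2% of genes and 3 of 9 members passed. Neutrophil-like cells were not among the cells of IR day 3 (0 cells), and in them Plaur was at 74.1 to 898 CPM at IR day 1 (median 275) and at 75.9, 171, 138, 317 and 80.7 CPM at MI, with no contrast to sham possible.

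At MI day 3, Plaur in macrophage-like cells was at 82.1, 67.5, 105, 85.7 and 133 CPM, above IR day 3 (1.75 ± 0.50, edgeR adjusted p = 0.021), but not without IR day 3 replicate 4 or 7 (edgeR adjusted p 0.081 and 0.109). In fibroblast-like cells it was at 69.5, 55.6, 67.6, 40.2 and 55.3 CPM, above IR day 3 (3.21 ± 0.72, edgeR adjusted p = 0.0052), in a contrast where 5.41% of genes and 3 of 9 members passed, and at an edgeR adjusted p of 0.067 without IR day 3 replicate 4. In endothelial-like cells it was at 155, 57.0, 153, 136 and 0 CPM, against 0 to 17.4 CPM in the 8 sham plates (4.04 ± 0.63, edgeR adjusted p = 1.7e-06). Without wells over 100000 UMIs the pooled endothelial-like level was 150 CPM at IR day 1 and 108 CPM at MI. Cluster 5 macrophage-like cells had Plaur at 419 CPM at IR day 1 and 85.1 CPM at MI, and cluster 14 cells at 12.2 to 52.9 CPM over sham day 1, IR day 1, IR day 3 and MI.

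Serpine2, the nexin that inhibits thrombin, fell in fibroblast-like cells after MI. Sham day 1 plates were at 665, 625 and 364 CPM and MI plates at 186, 90.9, 146, 113 and 59.6 CPM, all 5 below the sham plates (log2 −1.82 ± 0.52, edgeR adjusted p = 0.020), where 9.97% of genes and 1 of 9 members passed. Without sham day 1 replicate 1 or 3 the adjusted p was 0.079 and 0.169. IR day 3 plates were at 468, 453, 74.6 and 733 CPM, 3 of them above all MI plates and 1 below 4 of the 5. MI minus IR day 3 was −1.84 ± 0.46 (edgeR adjusted p = 0.012, or 0.093 without IR day 3 replicate 7). IR day 1 plates were at 247, 89.0, 247, 536 and 212 CPM, and the 2 IR day 14 plates at 2332 and 507 CPM. The fibroblast markers in these cells summed to 60021 CPM at sham day 1, 17611 at IR day 1, 76728 at IR day 3 and 32213 CPM at MI. Their part was not tested.

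The level of Serpine2 differed between clusters of fibroblast-like cells, and also between groups within a cluster. In cluster 15, led by Pi16, Htra3 and Gsn, which held all fibroblast-like cells of both sham groups, it was at 602 CPM at sham day 1, 1205 at IR day 1 (10 cells), 649 at IR day 3 and 960 CPM at IR day 14. In cluster 4, led by Cxcl5, Timp1 and Tnc, which held 135 of 136 MI cells, it was at 187 CPM at IR day 1, 437 at IR day 3 and 125 CPM at MI. Sham and MI fibroblast-like cells were thus different clusters, and the fibroblast-like difference compares them.

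**Figure D4:**
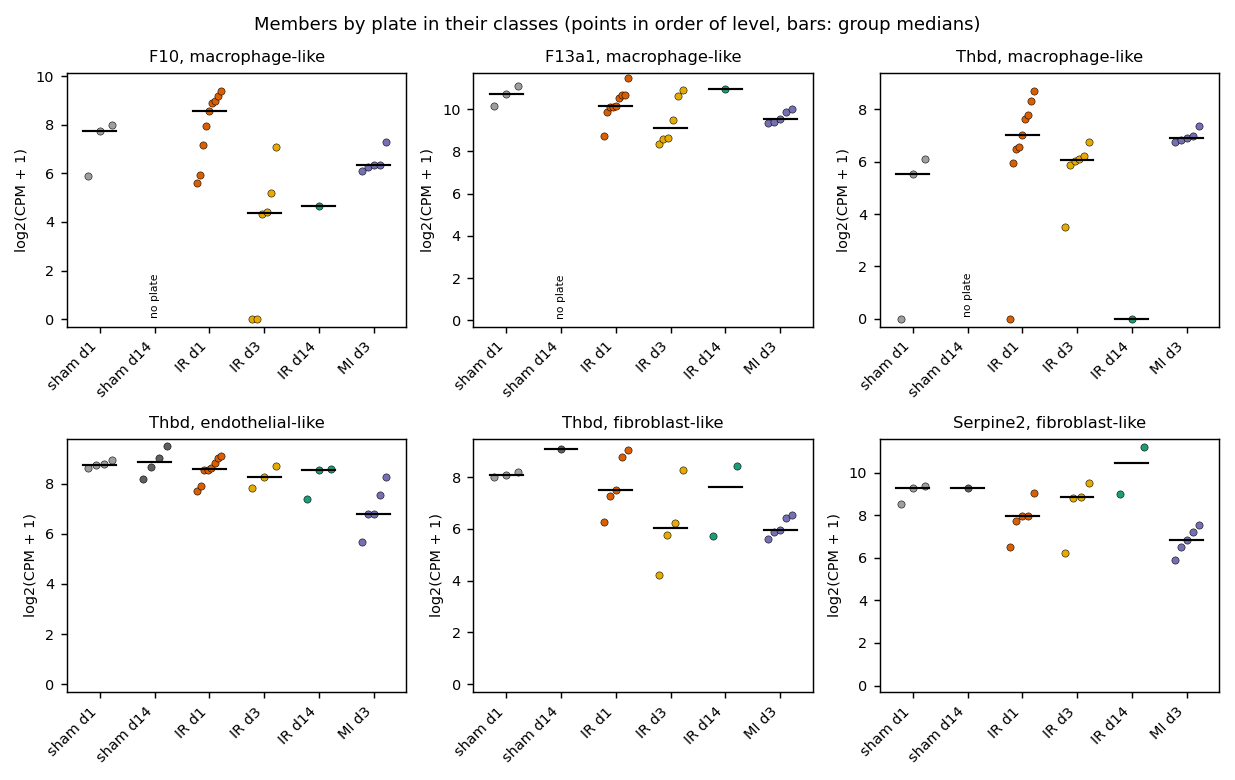
F10, F13a1 and Thbd in macrophage-like cells, Thbd in endothelial-like cells, and Thbd and Serpine2 in fibroblast-like cells, as log2(CPM + 1), with 1 point per plate with at least 5 cells of the class and a bar at the group median. F10 spans 0 to 136 CPM at IR day 3, and Serpine2 at MI lies below all sham day 1 plates.

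Over whole plates Serpine2 did not pass in any comparison: sham day 1 plates were at 66.4, 54.4, 80.1 and 43.4 CPM, MI plates at 83.9, 43.2, 79.0, 49.2 and 32.1 CPM, and IR day 1 and day 3 plates ran from 28.5 to 194 and from 28.2 to 284 CPM. In macrophage-like cells it was near the floor, with 3 UMIs at IR day 1, 49 at IR day 3 and 36 at MI, yet it passed as higher at IR day 3 than at IR day 1 (2.71 ± 0.77, edgeR adjusted p = 0.011) and lower at MI than at IR day 3 (−1.88 ± 0.49, edgeR adjusted p = 0.011). Both calls were lost without IR day 3 replicate 4 (1.94, edgeR adjusted p = 0.179, and −1.14, edgeR adjusted p = 0.407). The fibroblast markers in macrophage-like cells summed to 425 CPM at IR day 1, 1401 at IR day 3 and 1451 CPM at MI, and their part was not tested. In cardiomyocyte-like cells Serpine2 was at 25.8 CPM at sham day 1 and 42.4 CPM at IR day 3, and no UMI was found in the 20 MI cells. It passed as lower at MI than in sham (edgeR adjusted p = 0.039) and than at IR day 3 (edgeR adjusted p = 0.017), with 16.4% and 9.61% of genes called and 2 MI plates in the fit, and both calls were lost without either MI plate (edgeR adjusted p 0.11 to 0.287), the first also without sham day 1 replicate 3 (edgeR adjusted p 0.054) and the second without IR day 3 replicate 7 (edgeR adjusted p 0.098).

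Serpinb2, the inhibitor of urokinase, was the rarest transcript by cell and the most concentrated. Its 1080 UMIs lay in 61 cells, and 10 cells with at least 10 UMIs each held 1009 of them, or 93.4%. All 10 were fibroblast-like cells of cluster 4. At IR day 1, 4 such cells on 4 plates had 81, 39, 30 and 20 UMIs, and at MI 6 such cells on 4 plates had 546, 215, 23, 22, 21 and 12 UMIs. The single richest cell held 50.6% of all Serpinb2 UMIs.

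A Serpinb2 UMI was seen in 9 of 52 fibroblast-like cells at IR day 1 and 20 of 136 at MI, and in 0 of 23 at sham day 1, 0 of 13 at sham day 14, 0 of 57 at IR day 3 and 0 of 17 at IR day 14. Fibroblast-like IR day 1 plates were at 181, 901, 334, 5.53 and 0 CPM, MI plates at 12.8, 404, 7.38, 1.03 and 207 CPM, and the 4 IR day 3 plates at 0. The pooled levels rest on single plates, since IR day 1 replicate 5 held 81 of 182 UMIs and MI replicate 2 held 574 of 853. The IR day 1 to day 3 contrast passed (edgeR adjusted p = 0.039) and was lost without IR day 1 replicate 5 or 6 or any of the 4 IR day 3 plates (edgeR adjusted p 0.061 to 0.147).

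Over whole plates Serpinb2 was at 0, 11.8, 0 and 0 CPM at sham day 1, at 0 to 13.8 CPM at sham day 14, at 0 to 295 CPM at IR day 1 with a median of 3.73 CPM, at 0 in all 3 IR day 14 plates and at 5.78, 152, 4.02, 0.295 and 110 CPM at MI. It passed at IR day 1 (log2 4.25 ± 1.49, edgeR adjusted p = 0.031) and at MI against sham (4.57 ± 1.24, edgeR adjusted p = 0.0023). It also passed as lower at IR day 3, which had 1 UMI, than at IR day 1 (edgeR adjusted p = 0.0050) and at MI (edgeR adjusted p = 0.0090, or 0.075 without IR day 3 replicate 4). The IR day 1 call was lost without 6 single plates, sham day 1 replicates 1, 3 and 4, IR day 1 replicates 5 and 6 and IR day 3 replicate 3 (edgeR adjusted p 0.054 to 0.107).

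The Serpinb2-rich cells of the 2 injuries differed in another marker set. The 4 IR day 1 cells had 0 UMIs over a list of mesothelial markers (Msln, Wt1, Upk3b, Krt19, Lrrn4), while the 6 MI cells, in order of Serpinb2, had 115, 136, 329, 13, 294 and 0. At MI, 9 fibroblast-like cells with at least 10 mesothelial-list UMIs held 829 of the 853 Serpinb2 UMIs, and single cells among them held 546 and 215. At IR day 3, 3 fibroblast-like cells had at least 10 mesothelial-list UMIs and held 0 Serpinb2 UMIs. The MI cells had 21995 to 177008 UMIs each and the IR day 1 cells 17629 to 32289. With cells of at least 10 mesothelial-list UMIs left out, a setting chosen after seeing the data, the whole-plate MI difference from sham was 0.66 (edgeR adjusted p = 0.711), and at IR day 1 it was 4.25 (edgeR adjusted p = 0.0080). Without the richest cell the MI difference was 3.47 (edgeR adjusted p = 0.022).

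**Figure D5:**
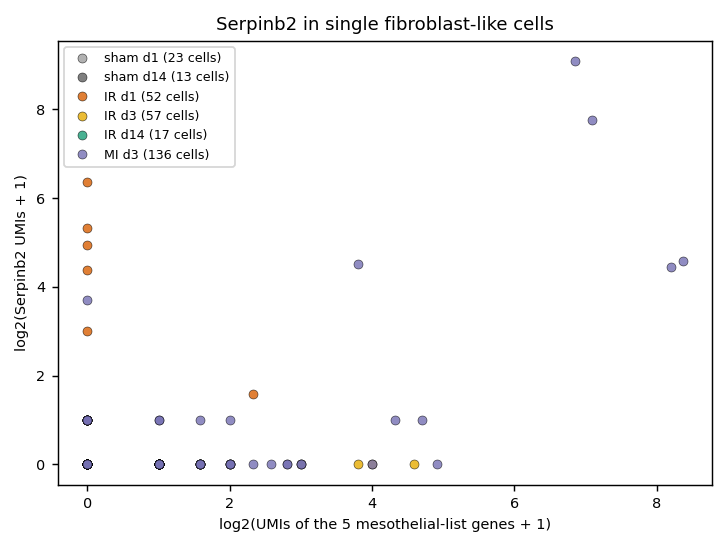
Serpinb2 UMIs (vertical axis) against UMIs of the 5 mesothelial-list genes (horizontal axis), both as log2(UMIs + 1), with 1 point per fibroblast-like cell, coloured by group. The 4 IR day 1 cells with 20 to 81 Serpinb2 UMIs sit at 0 on the horizontal axis, and the MI cells with 546 and 215 UMIs sit at 115 and 136 mesothelial-list UMIs.

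Of the wider clotting and fibrinolysis list, 37 of 38 genes were in the tables and 19 could be tested over whole plates. At IR day 1, 6 passed and all were higher than at sham day 1, where 25.4% of all genes passed in either direction. Anxa2, a surface receptor for plasminogen and Plat, rose by 1.88 ± 0.42 (log2, SE; edgeR adjusted p = 0.00069). Tfpi2 (2.19 ± 0.56), F7 (2.74 ± 0.71), the protein C receptor Procr (3.22 ± 0.92) and S100a10 (1.16 ± 0.36) also passed. Against sham, IR day 3 had 6 higher and 0 lower, led by F7 (7.00 ± 0.76, edgeR adjusted p = 2.9e-08), the partner of tissue factor, and MI had 10 higher, among them Anxa2 (2.85 ± 0.34, edgeR adjusted p = 5.6e-09) and F7 (5.74 ± 0.83, edgeR adjusted p = 5.8e-07), and 1 lower, F8. Lrp1, the receptor that clears protease and inhibitor complexes, was among the higher genes at both (2.03 ± 0.39 and 2.14 ± 0.40). Of all genes, 22.6% passed at IR day 3 against sham and 49.7% at MI against sham. At IR day 14 against sham day 14, edgeR called 0 genes of the list in each direction and 0.0139% of all genes.

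From IR day 1 to IR day 3, 1 gene of the list was higher and 2 were lower, and from IR day 3 to MI 2 were higher and 1 was lower, in contrasts where 20.9% and 11.8% of all genes passed. Tfpi2, an inhibitor of plasmin and other proteases, was lower at IR day 3 than at IR day 1 (log2 −2.77 ± 0.56, edgeR adjusted p = 0.00034) and higher at MI than at IR day 3 (2.27 ± 0.57, edgeR adjusted p = 0.0049), like Plaur. F7 went the other way in both, with 1.75 ± 0.39 (edgeR adjusted p = 0.0012) and −1.26 ± 0.41 (edgeR adjusted p = 0.038). From IR day 3 to IR day 14, where 16.8% of all genes passed, 1 gene was higher, Vwf, and 4 were lower, F7, Anxa2, S100a10 and Lrp1. These contrasts share groups and are not independent of each other. For the difference of the IR effects between day 1 and day 14, 2 genes of the list passed, among them Tfpi2 (3.40 ± 1.08, edgeR adjusted p = 0.033). Of all genes, 11.1% passed there.

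For each member the genes of most similar pattern were looked up over 22 class-by-group sums of at least 20 cells, among 10316 genes, by Pearson's r of log2(CPM + 10). F13a1 was matched by Slc7a8 (0.964), Apoc2 (0.963) and Ctsc (0.961), and Serpine2 by Serping1 (0.93), Lum (0.929) and Htra3 (0.927), the first a complement inhibitor and the second a matrix proteoglycan. Plaur was matched by B3gnt5 (0.911), the immediate early gene Nr4a1 (0.896) and Txnrd1 (0.895). Serpinb2 was matched by 5730559C18Rik (0.974), the hyaluronan synthase Has1 (0.927) and Rdh10 (0.915), and Plau by Bmp2 (0.818), Hif1a (0.801) and Man1a (0.777). Among the members themselves the closest pairs were F10 with F13a1 (0.751) and Thbd with Plat (0.735). The points share plates and differ in depth, so these values describe the sums and carry no p.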

How the data were processed

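Left ventricular cells of sham, IR and MI mice were measured by SORT-seq on 36 plates. Per the labels and the study's methods, the authors mapped paired reads to GRCm38/mm10 with BWA and deposited whole-number UMI counts per gene and well, 1 table per plate. The version of BWA and the annotation were not given in the sources used here. The highest deposited count was 4096, so counts were not corrected for molecules sharing a UMI, which understates very high counts. Wells of at least 1000 UMIs were kept, and 1 IR day 3 plate (replicate 2) had none. Copied wells were left out. The 9 members and the lists were chosen with earlier results of these data known.

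Cells were clustered with scanpy 1.11.5 (2000 variable genes, 30 components, Leiden resolution 1) without the members or the clotting list, and a cluster was named only with at least 3 markers of a type. No doublet caller was run, and cells carrying markers of another class were left out as an alternative. Counts were summed per plate, over all cells or over a class with at least 5 cells, and tested with edgeR 4.0.16 (quasi-likelihood F test, TMM scaling, genes of at least 20 UMIs, Benjamini-Hochberg over all genes tested, threshold 0.05). All groups entered 1 fit, with sham days 1 and 14 weighted equally where both were used. Macrophage-like and fibroblast-like comparisons had sham day 1 only. The scripts were tested on simulated counts. The rule for named genes was all 9 members, the list genes that passed (values for at most 8, by smallest adjusted p) and the 3 genes most similar to each member. A list gene that passed is counted but not reported here by name. Alternatives were other scalings, filters and well minimums, DESeq2 1.42.0, each sham day alone, a replicate block and leaving out each plate, and 6 were added after seeing the data. Intervals and floors of 3 UMIs cover counting error only. Positions and promoters are from RefSeq, GRCm38.p6.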

Additional observations from a re-analysis of the deposited data

Results flagged for a closer look

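Of 82 groups of 4 to 10 plates with at least 10 UMIs of a member, 15 had 1 plate that stood apart by Dixon's test at the 95% level. Chance alone gives about 1 in 20 for independent, normally distributed values. These CPM values come from libraries of unlike size, and whole-plate and class values share UMIs, so the count cannot be read against that rate. Groups of 3 plates were not tested.

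Over whole plates, IR day 1 replicate 5 had F3 at 39.6 CPM against 0 to 14.9 CPM in the other IR day 1 plates, and IR day 1 replicate 8 had Plaur at 586 CPM against 68.1 to 326 CPM. Among IR day 3 plates, replicate 3 had Plat at 105 CPM against 0 to 38.1 CPM and Serpine2 at 284 CPM against 28.2 to 107 CPM. This plate also had the most fibroblast-like cells of its group, 24. Among MI plates, replicate 3 had F10 at 65.5 CPM against 34.3 to 37.1 CPM, replicate 4 had Plau at 20.3 CPM against 8.68 to 11.8 CPM, and replicate 2 had Plaur at 60.6 CPM against 83.6 to 85.4 CPM. The Plau value of MI replicate 4 includes the endothelial-like well of 426261 UMIs.

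In macrophage-like cells, MI replicate 3 had F10 at 154 CPM against 67.5 to 81.0 CPM, and IR day 3 replicate 3 had F10 at 136 CPM against 0 to 35.4 CPM and Plaur at 102 CPM against 0 to 35.2 CPM, from 4 and 3 UMIs in a library of 29444. IR day 1 replicate 4 had F13a1 at 2793 CPM against 421 to 1610 CPM, and IR day 1 replicate 1 had Plau at 42.4 CPM against 0 to 15.7 CPM. In endothelial-like cells, IR day 1 replicate 6 had Plat at 713 CPM against 0 to 184 CPM. In fibroblast-like cells, MI replicate 5 had Plat at 99.6 CPM against 150 to 164 CPM, and IR day 3 replicate 4 had F13a1 at 140 CPM against 0 to 20.4 CPM, the plate with 33 F13a1 UMIs in 1 cell that also carried macrophage markers. What set these plates apart was not tested.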

How the results depend on the processing

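At IR day 1 against sham day 1 the count of 4 was 2 with DESeq2 and with plates that share copied wells left out. IR day 3 against sham went from 2 to 1 with RLE scaling, DESeq2, filterByExpr, no filter, Rn45s left out, sham day 14 alone, a lower UMI minimum for wells, copied wells kept, sham day 14 replicate 2 left out, mesothelial-list cells left out, plates that share wells left out or plates of at least 20 cells, and to 0 with sham day 1 alone. IR day 14 against IR day 3 went from 2 to 1 with RLE, DESeq2, no filter, wells of at least 2000 UMIs, copied wells kept, that replicate left out or plates that share wells left out, and to 0 with plates of at least 20 cells. MI against IR day 3 went from 4 to 1 with DESeq2, and the difference of the IR effects from 0 to 1 with DESeq2 and with a lower UMI minimum for wells. Within classes, macrophage-like calls went from 11 to 5 with filterByExpr, fibroblast-like calls from 8 to 15 with no filter, 3 with at least 10 cells per plate and 5 without cells carrying markers of another class, and cardiomyocyte-like calls from 3 to 0 with DESeq2 and filterByExpr and to 1 with no filter, wells of at least 2000 UMIs, at least 10 cells per plate or no mixed cells. With DESeq2, 20 of 49 member calls missed the threshold. Within classes these were F13a1 and Serpine2 from IR day 1 to day 3 and F10, Plaur and Serpine2 from IR day 3 to MI in macrophage-like cells, Plat at MI against sham in endothelial-like cells, F13a1 in both its fibroblast-like contrasts, and Serpine2 at MI against sham and F13a1 at IR day 14 in cardiomyocyte-like cells (DESeq2 adjusted p 0.054 to 0.429). Another 2 calls, Plau at IR day 1 in endothelial-like cells and Serpine2 at MI against IR day 3 in cardiomyocyte-like cells, got no adjusted p from DESeq2. The cause was not tested.

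With each plate left out in turn the counts ran from 2 to 4 for IR day 1 against sham day 1, 0 to 2 for IR day 3 against sham, 0 to 0 for IR day 14 against sham day 14, 5 to 7 for MI against sham, 4 to 6 for IR day 3 against IR day 1, 0 to 2 for IR day 14 against IR day 3, 1 to 4 for MI against IR day 3 and 0 to 1 for the difference of the IR effects. In macrophage-like, endothelial-like, fibroblast-like and cardiomyocyte-like cells they ran from 5 to 12, 5 to 7, 4 to 9 and 1 to 3. The only value that changed sign was F13a1 in fibroblast-like cells, MI minus IR day 3, which ran from −2.56 to 0.62, the latter without IR day 3 replicate 4.

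Replicate numbers did not pair plates: of 61 same-numbered pairs, 10 had a correlation of deviations over 0.1 (median −0.002). With a replicate block, IR day 3 against sham and IR day 14 against IR day 3 each had 1 member past the threshold in place of 2. Plau at IR day 1 was 1.84 (edgeR adjusted p = 0.072), Thbd and Plaur at IR day 3 against sham were −0.93 (0.137) and 1.62 (0.076) and F13a1 there was 2.35 (0.0038), Plaur at IR day 14 against IR day 3 was −1.93 (0.128) and Plau at MI against IR day 3 was 2.17 (0.0501), all edgeR adjusted p. The block changed no other whole-plate call of a member. DESeq2 and leaving out plates were not run for the fit of source classes. Depth limits F3, Plau and Serpinb2 most, with 142, 294 and 1080 UMIs in all, and sham macrophage-like cells, with 21 cells at day 1 and 7 at day 14.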

Other observations

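Some cells fell outside the 5 named classes. The 15 mural-like cells, pericytes or smooth muscle by markers such as Myh11 and Notch3, had Serpine2 at 219 CPM, Plat at 113 CPM and Thbd at 73.1 CPM, with a Serpine2 UMI in 60.0% of them. F13a1 in these cells was at 139.5 CPM, but from 1 cell with 21 UMIs. The 436 cells of unnamed clusters had F13a1 at 120 CPM, with a UMI in 23.4% of cells, and F10 at 30.5 CPM. Plaur was at 29.7 CPM and Serpinb2 at 13.2 CPM there. No comparison between groups was made in either set.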
